A study of Mus musculus with 8 samples.

Results

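Transcript levels of 10 heat shock protein genes were followed across the cell classes of the mouse liver, in β-glucan (BG) treated and control mice. The genes were Hspa8, Hsp90aa1, Hsp90ab1, Hspa1a, Hspa1b, Hsph1, Hspd1, Hspe1, Dnaja1 and Dnajb1, taken by symbol from the 32285 genes counted in each of 8 single-cell libraries. All 10 were found. They were chosen with the difference between BG and control already known, so every BG to control value of these genes is a description. Calls of these genes, and whether a call held under other settings, show only how the values stand against a threshold. They are no independent evidence of a difference. Each library came from the liver of 1 female C57BL/6J mouse, and all mice were 9 weeks old. The 4 control mice (replicates 1 to 4) carried no BG. The 4 BG mice (replicates 5 to 8) had received 1.2 mg of the soluble yeast glucan odetiglucan (Imprime PGG) intravenously 48 hours before the liver was taken. Each suspension combined CD45-enriched cells with the buffy coat of the remaining cells, which was added to recover Kupffer cells (KCs), so shares of cell types reflect that enrichment.

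Heat shock proteins are molecular chaperones: they bind unfolded or newly made proteins, keep them from clumping and pass them through cycles of folding driven by ATP. HSP70 proteins act with J-domain proteins, which deliver clients and stimulate the ATPase, and with nucleotide exchange factors, which let the client go, while HSP90 works later on kinases, steroid receptors and other signalling proteins. Inside mitochondria the HSP60 barrel and its HSP10 lid fold imported proteins. Some of these genes are made in every cell and others are switched on by heat, proteotoxic stress or tissue handling, through heat shock factor 1, which binds repeats of the unit nGAAn called heat shock elements. In liver work the inducible genes are also known to respond to enzymatic digestion of the tissue.

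The members fall into 5 roles. Hspa1a (ENSMUSG00000091971, chr17:34969190-34972156, minus strand, GRCm38) and Hspa1b (ENSMUSG00000090877, chr17:34956436-34959238, minus strand) are neighbouring genes for inducible HSP70, and Hspa8 (ENSMUSG00000015656, chr9:40800984-40810087, plus strand) encodes the constitutive HSP70. Dnajb1 (ENSMUSG00000005483, chr8:83608193-83612653, plus strand) and Dnaja1 (ENSMUSG00000028410, chr4:40722150-40737149, plus strand) encode J-domain partners, and Hsph1 (ENSMUSG00000029657, chr5:149614287-149636376, minus strand) the HSP110 exchange factor. Hsp90aa1 (ENSMUSG00000021270, chr12:110690605-110702728, minus strand) is the inducible and Hsp90ab1 (ENSMUSG00000023944, chr17:45567775-45573271, minus strand) the constitutive cytosolic HSP90. Hspd1 (ENSMUSG00000025980, chr1:55077835-55088243, minus strand) encodes HSP60 and Hspe1 (ENSMUSG00000073676, chr1:55088132-55091307, plus strand) HSP10. The last pair stand head to head, and their annotated genes overlap by 112 bases at the 5′ ends. All 10 are protein-coding genes, and every position is that of the whole gene.

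Promoter sequences of 7 of the 10 genes were at hand in a RefSeq table (GRCm38.p6), the genes matched being Hspa1a, Hspa1b, Hsph1, Hspd1, Hspe1, Dnaja1 and Dnajb1. The stretches below are shown because they carry the heat shock element letters upstream of the members whose values went in opposite directions, inducible HSP70 on one side and Hsph1 and the mitochondrial pair on the other. Capitals mark the letters that matched, read 5′ to 3′ on the strand of the gene.
Hspa1a: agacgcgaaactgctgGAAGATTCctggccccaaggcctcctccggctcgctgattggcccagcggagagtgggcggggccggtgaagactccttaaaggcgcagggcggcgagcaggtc
Hspa1b: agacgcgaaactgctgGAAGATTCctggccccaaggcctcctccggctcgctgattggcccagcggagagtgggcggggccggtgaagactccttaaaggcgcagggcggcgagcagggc
Hspe1: cggtccgTTCTAGAACCTTCCGGAAggccc
Hspd1: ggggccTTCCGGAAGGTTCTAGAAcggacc
Hsph1: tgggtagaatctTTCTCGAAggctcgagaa
The Hspa1a stretch is chr17:34972157-34972276 and the Hspa1b stretch chr17:34959239-34959358, both on the minus strand and both ending at the base before the transcript start. The Hspe1 stretch is chr1:55088052-55088081 on the plus strand, the Hspd1 stretch (at the second of its annotated starts) chr1:55088053-55088082 on the minus strand, and the Hsph1 stretch chr5:149636352-149636381 on the minus strand.

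The 250 bases before the start were searched on both strands for 3 units (GAANNTTCNNGAA or TTCNNGAANNTTC) and for 2 units (GAANNTTC or TTCNNGAA, which every 3-unit match also holds). A 3-unit match stood in the windows of Hspe1 (starting 89 and 84 bases before the start) and of Hspd1 (144 and 139 bases before the second start), against 0.466% of 32851 promoters of 27025 genes. The Hspe1 and Hspd1 matches are the same DNA read from either side, since their coordinates overlap on opposite strands. A 2-unit match, present in 12.8% of those promoters, stood 104 bases before the start of Hspa1a and of Hspa1b, 33 bases before the first start of Hsph1 and 124 bases before the first start of Dnaja1. Neither pattern was in the windows of Dnajb1, which says only that these letters are not there. The 250-base windows of Hspa1a and Hspa1b differed at 3 bases and were 98.8% identical. A match is a description of letters, and none of these data bear on which factor binds.

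Library totals ran from 39612380 to 46211839 UMIs (unique molecular identifiers, 1 for each captured transcript) in control mice and from 44184117 to 60654583 in BG mice. Cells with 200 to 2500 genes and at most 30% mitochondrial UMIs were kept, which left 48465 of 127557 barcodes, 6222 to 7790 per control mouse and 4330 to 5780 per BG mouse. The library of BG replicate 5 differed from the rest at that stage: a median barcode held 34 genes, the mean mitochondrial share was 75.9% and 4330 of 27873 barcodes were kept. Any 2 libraries shared between 5 and 26 barcode sequences. Cells were assigned to classes by marker genes, with no heat shock gene among them: a cell needed at least 3 markers of its class and at most 2 of an unrelated one, and a class name means that its cells are like that type in those markers. T and NK cell subsets were split by fewer genes, such as Cd4 and Cxcr6, and NK, ILC1-like and cycling cells were exceptions gated on fewer than 3 own markers. In every class the 10 leading genes by fold held more markers of the class than of any other, except in the ILC1-like cells, where 1 was an ILC1 marker and 1 a marker of another class. The 17 classes tested ranged from 160 neutrophils to 8437 B cells, and 19572 cells stayed unassigned. Although the samples are labelled leukocytes, 5229 cells carried sinusoidal endothelial and 261 bile duct markers, and Ptprc, the gene for CD45, was detected in 10.3% and 2.68% of them, against 93.8% of NKT-like cells.

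UMIs were summed per mouse and class, and levels are given as CPM with TMM factors. The total behind a CPM is that of the genes passing the low-count filter in that class, 1712 genes in KCs and 9729 in NKT-like cells. Levels in classes that kept few genes are therefore raised against classes that kept many, and comparisons between classes hold on that scale only. Sums of gene lists are instead scaled to all UMIs of the class, without TMM factors. A gene was called when edgeR's quasi-likelihood test gave a Benjamini-Hochberg adjusted p under 0.05 over all genes of the class and a log2 fold change past 0.5. Of 170 pairs of a member and a class, 161 passed the filter on low counts, the 9 others all being members in neutrophils, where Hspa8 alone passed. In these 161 pairs BG was called higher in 14 and lower in 2, beside 0.938% called higher and 0.158% called lower over 63728 gene and class pairs. BG mice all lay above all control mice in 35 pairs and all below in 2, beside 3.3% and 2.54% of all pairs. The fold change was above 0 in 111 of the 161, beside 49.5% of all pairs. By class, the share of all genes called higher was 1.68% in NKT-like cells, 1.27% in Cxcr6 CD4 T cells, 1.25% in B cells, 1.13% in endothelial cells, 0.424% in ILC1-like cells and 0.188% in NK cells. Since the members were chosen on this contrast, those shares are printed only to show the background.

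The members did not move as a block. Hspa8 and Hspe1 had fold changes above 0 in 17 of 17 and 16 of 16 classes, and Hsp90ab1, Hsph1 and Dnaja1 in 15 of 16 each. Hspd1 was above 0 in 14 and Hsp90aa1 in 13 of 16. The inducible HSP70 genes went the other way, Hspa1a below 0 in 14 and Hspa1b in 15 of 16 classes, as did the J-domain gene Dnajb1 in 13 of 16. Median log2 fold changes over the classes were 0.53 for Hspe1, 0.45 for Hspa8, 0.42 for Hsp90ab1, 0.38 for Hspd1, 0.34 for Hsph1, 0.29 for Hsp90aa1 and 0.16 for Dnaja1, against -0.21 for Dnajb1, -0.40 for Hspa1a and -0.50 for Hspa1b. The median over all genes tested in a class lay between -0.03 and 0.01 in all 17 classes. The same 8 mice stand behind every class, so classes are not replicates of one another.

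**Figure D1:**
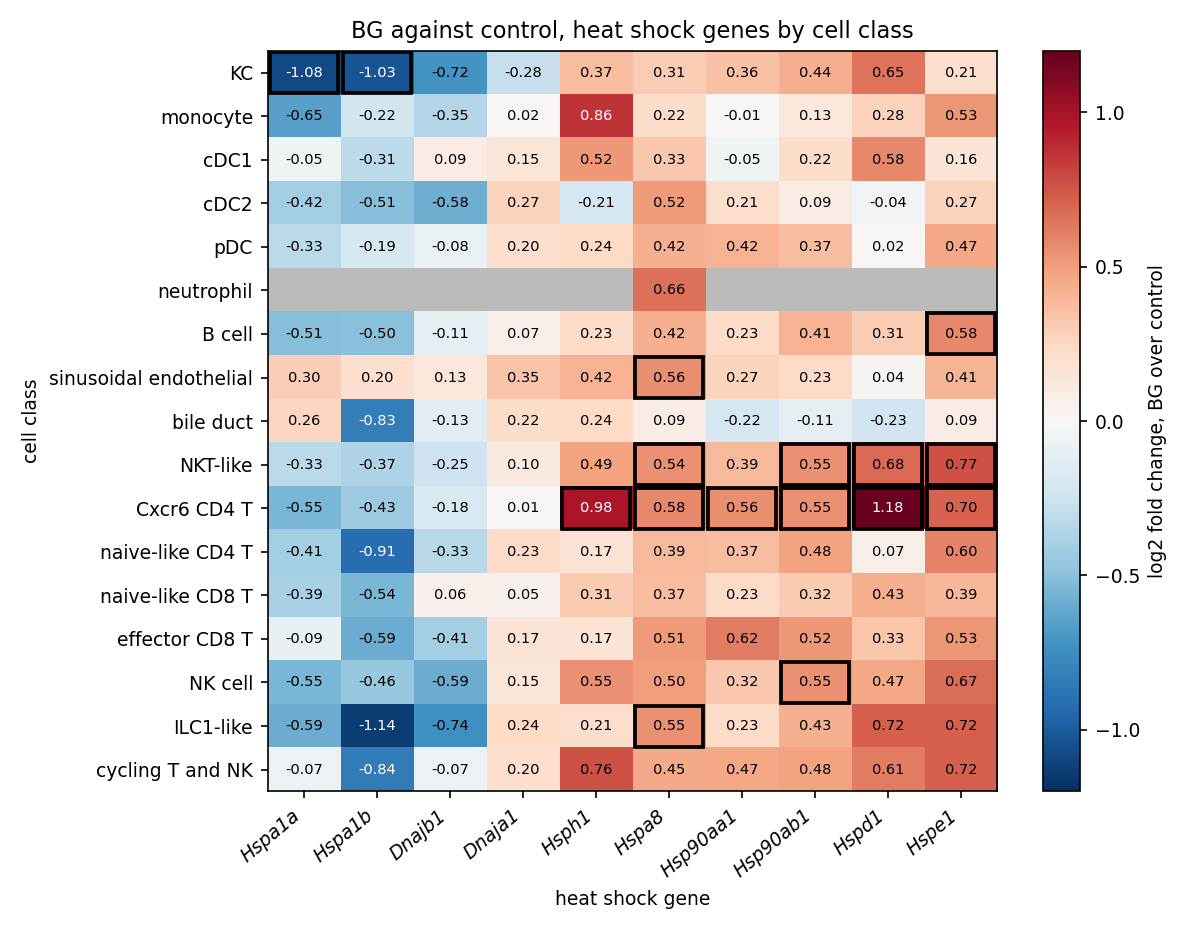
Log2 fold change of BG over control for each heat shock gene (columns) in each cell class (rows), from the edgeR fit on UMIs summed per mouse, with black frames around the 16 called pairs and grey where a gene did not pass the filter. The left 3 columns are mostly blue (lower in BG, lowest -1.14 for Hspa1b in ILC1-like cells) and the right 6 mostly red (higher in BG, highest 1.18 for Hspd1 in Cxcr6 CD4 T cells).

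Inducible HSP70 was lower in BG mice in KCs, macrophages that live in the hepatic sinusoids, and these were the 2 lower calls among the members. Hspa1a in KCs measured 955, 1151, 754 and 979 CPM in control replicates 1 to 4 and 306, 462, 411 and 598 CPM in BG replicates 5 to 8. Every BG mouse lay below every control mouse. The means were 959.5 ± 163 CPM and 444 ± 121 CPM (SD, n = 4 each), and the log2 fold change was -1.08 (SE 0.21). Hspa1b in the same cells measured 608, 904, 977 and 1382 CPM in control and 548, 292, 448 and 627 CPM in BG mice. Here the groups overlapped, because BG replicate 8 was above control replicate 1. The log2 fold change of Hspa1b was -1.03 (SE 0.23), from means of 968 ± 319 CPM and 479 ± 144 CPM. Of the 1712 genes tested in KCs, 0.759% were called higher and 0.35% lower.

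The KC values rest on few cells. There were 11, 28, 86 and 50 KCs in control replicates 1 to 4 and 46, 29, 80 and 51 in BG replicates 5 to 8, with 19 to 135 UMIs of Hspa1a and 12 to 175 of Hspa1b per mouse. The Hspa1a call was lost when BG replicates 5 or 7 were left out and when low counts were not filtered. Hspa1b was no longer called without control replicates 3 or 4, without BG replicates 6 or 7, with DESeq2 or without the filter. About as many further KCs carried more than 2 T cell markers, and with them (766 in place of 381 KCs, an alternative chosen after seeing the data) the log2 fold changes were -0.99 (SE 0.20) for Hspa1a and -1.08 (SE 0.25) for Hspa1b. The gate markers of T cells summed to 224 to 405 CPM in control and 153 to 387 CPM in BG KCs, and those of KCs to 12491 to 17318 CPM and 17915 to 20545 CPM.

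Immediate early genes are also known to respond to digestion, and 1 of the 10 tested in KCs, Klf6, was called lower. The 12 genes of that list (Fos, Jun, Egr1 and others) summed to 9044, 13003, 8667 and 8946 CPM in control KCs and 6313, 6497, 5629.8 and 9408 CPM in BG KCs. The groups overlapped, since BG replicate 8 was above 3 of the 4 control mice. Over all classes 25 of 186 immediate early pairs (13.4%) were called lower in 9 classes and 1 (Egr1 in plasmacytoid dendritic cells, pDCs) higher. The part of these values in the HSP70 difference was not tested.

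Outside KCs neither inducible gene was called in any class tested. Hspa1a in monocytes measured 745, 687, 1277 and 779 CPM in control mice and 764, 399, 425 and 637 CPM in BG mice, a log2 fold change of -0.65 (SE 0.21) with overlapping groups. The high control value was that of replicate 3. Hspa1b in ILC1-like cells, innate lymphocytes that stay in the tissue, had the lowest fold change of any pair, -1.14 (SE 0.35). Its control values were 133, 224, 594 and 922 CPM and its BG values 237, 114, 195 and 247 CPM, so the 2 high control mice carried the difference and the groups overlapped. In NKT-like cells, T cells that share NK receptors, Hspa1a measured 79.6, 72.8, 176 and 243 CPM in control and 158, 69.6, 75.4 and 161 CPM in BG mice, and the groups covered the same range. Sinusoidal endothelial cells, which line the liver capillaries, were the class with both genes above 0 (log2 0.30, SE 0.15, for Hspa1a and 0.20, SE 0.17, for Hspa1b). Their Hspa1a values were 261, 308, 305 and 403 CPM in control and 484, 331, 459.7 and 309 CPM in BG mice, with overlap.

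Inducible HSP70 also differed most between classes. Over all 8 mice, Hspa1a was highest in type 1 conventional dendritic cells (cDC1, 814 ± 256 CPM, SD, n = 8), then monocytes (714 ± 271), KCs (702 ± 306) and type 2 dendritic cells (cDC2, 617 ± 171). Endothelial cells followed at 358 ± 81.3 CPM, effector CD8 T cells at 225 ± 90.02, NK cells at 195 ± 112, pDCs at 189 ± 136, Cxcr6 CD4 T cells at 164 ± 67.0 and ILC1-like cells at 161 ± 95.7. The lowest were B cells (133 ± 89.4), NKT-like cells (129 ± 64.5), naive-like CD4 T cells (109 ± 81.5), cycling T and NK cells (87.1 ± 43.2) and naive-like CD8 T cells (58.6 ± 30.7). Class levels did not enter the choice of genes, so they were tested within mice by an exact two-sided sign test, adjusted over 110 comparisons of a member between 2 classes, where 8 mice allow no p below 0.0078125. Hspa1a was higher in KCs than in NKT-like cells in 8 of 8 mice, by 5.51-fold (log2 2.46 ± 0.97, SD over mice, exact sign test, adjusted p = 0.021). In monocytes it was 5.80-fold above NKT-like cells (log2 2.54 ± 0.56) and in cDC1 6.70-fold (log2 2.74 ± 0.46), again in 8 of 8 mice with the same adjusted p. Hspa1b had its highest and lowest means in KCs at 723 ± 348 CPM and naive-like CD8 T cells at 78.1 ± 40.3, and KCs were 3.27-fold above NKT-like cells in 8 of 8 mice (log2 1.71 ± 0.63).

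**Figure D2:**
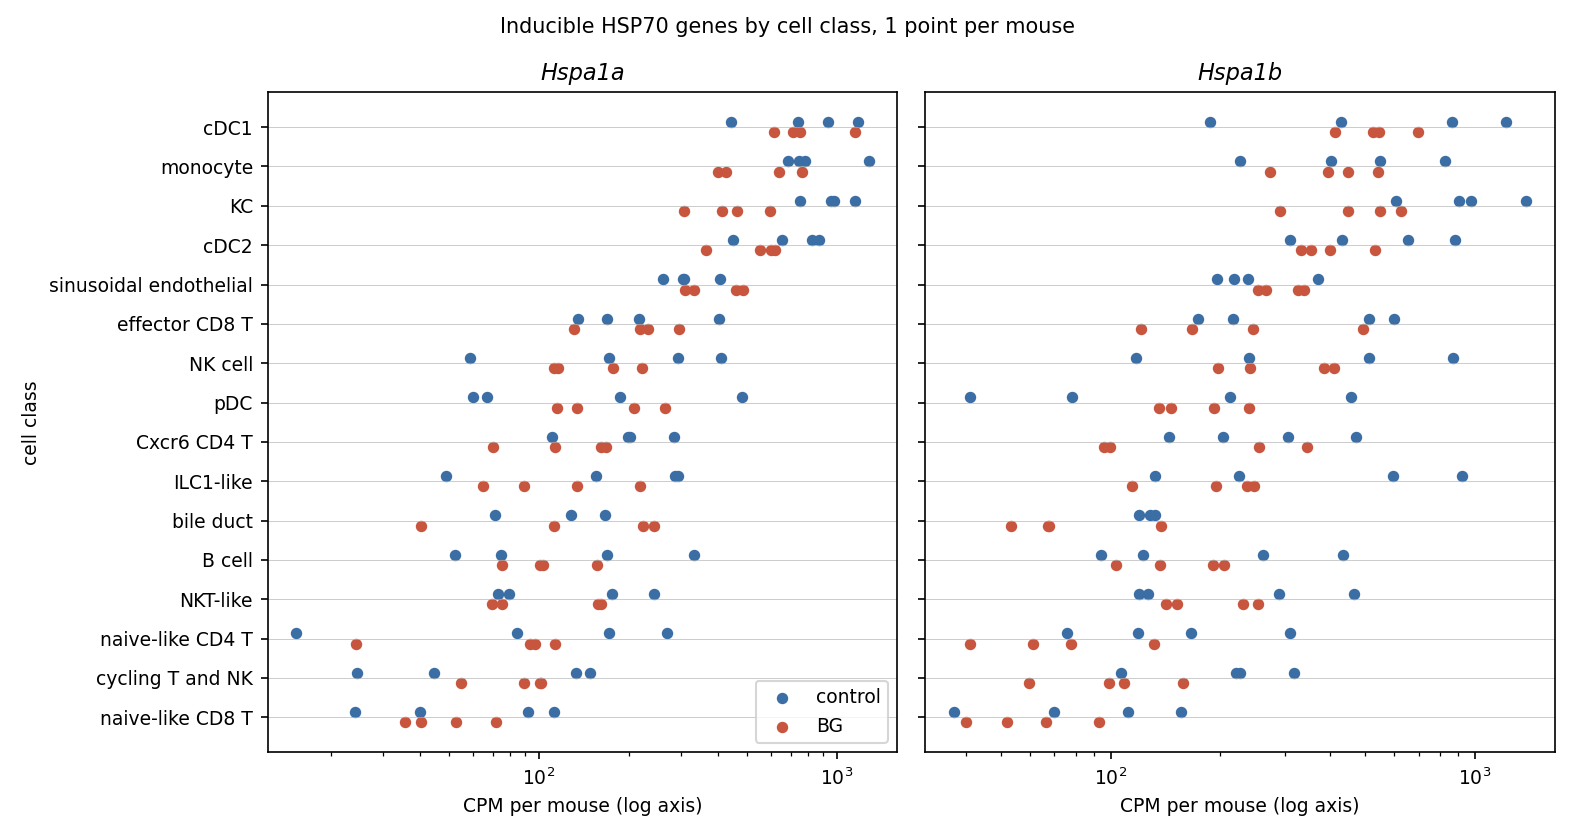
Level of the inducible HSP70 genes Hspa1a (left) and Hspa1b (right) in each cell class (rows), in CPM on a log axis, with 1 point per mouse (blue, control; red, BG). For Hspa1a the 4 highest class means are those of cDC1, monocytes, KCs and cDC2 (617 to 814 CPM), while for Hspa1b single mice of monocytes (227 to 825 CPM) and NK cells (117 to 873 CPM) overlap. In KCs every red Hspa1a point (306 to 598 CPM) lies left of every blue one (754 to 1151 CPM).

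Dnajb1, the J-domain partner of inducible HSP70, had its lowest fold changes in ILC1-like cells (log2 -0.74, SE 0.20), KCs (-0.72, SE 0.31) and NK cells (-0.59, SE 0.17), and none was called. ILC1-like cells measured 303, 380.4, 415 and 586 CPM in control and 309.6, 163, 276 and 239.7 CPM in BG mice. BG replicate 5 lay within the control range and the other 3 below it. NK cells showed the same arrangement, with 276, 390.0, 407 and 353 CPM in control and 285, 231, 225 and 205 CPM in BG mice. In KCs the Dnajb1 values were 86.8, 226, 207 and 219 CPM in control and 127, 73.0, 98.2 and 174 CPM in BG mice, and control replicate 1 was the exception, within the BG range. Among the 15 classes measured in all 8 mice Dnajb1 was highest in ILC1-like cells (334 ± 128 CPM, n = 8) and lowest in endothelial cells (95.3 ± 22.8 CPM). Bile duct cells, measured in 7 mice, averaged 81.0 CPM. Monocytes held 0.556 of the NKT-like level (lower in 8 of 8 mice, adjusted exact p = 0.021).

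Dnaja1, a J-domain protein with a farnesyl anchor, was the member with the smallest BG to control differences, between -0.28 in KCs and 0.35 in endothelial cells on the log2 scale. In NKT-like cells it measured 403, 609, 700.4 and 857 CPM in control and 928, 638, 600.4 and 599 CPM in BG mice. The means, 642 ± 189.6 CPM and 691 ± 159 CPM, lay well within the spread of either group. In endothelial cells the control values were 351, 523, 585 and 659.8 CPM and the BG values 666, 661, 706 and 667 CPM, so the groups did not overlap, by a margin of about 1 CPM, and the pair was not called. Between classes the Dnaja1 range was also narrow, from 831 ± 199 CPM in NK cells to 484 ± 133 CPM in B cells. B cells held 0.719 of the NKT-like level, lower in 8 of 8 mice (adjusted exact p = 0.021).

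Hsph1, the exchange factor that resets HSP70, was called higher in Cxcr6 CD4 T cells, a tissue-type CD4 subset with the chemokine receptor Cxcr6. Control mice measured 68.0, 86.5, 139 and 288 CPM and BG mice 352, 210.2, 230.3 and 250.1 CPM. Control replicate 4 lay above 3 of the 4 BG mice, and the groups overlapped. The log2 fold change was 0.98 (SE 0.24), and the call was lost without any 1 of control replicates 1 to 3, without any 1 of the BG mice, with DESeq2, and with no upper limit on genes per cell. In NKT-like cells Hsph1 measured 64.3, 123, 176 and 240.2 CPM in control and 256, 181, 169.7 and 235 CPM in BG mice, a log2 fold change of 0.49 (SE 0.25). No class had all BG mice above all control mice for this gene, although its fold change was above 0 in 15 of 16. Its mean level was highest in effector CD8 T cells (262 ± 104 CPM). The lowest means were those of endothelial cells (83.9 ± 22.9 CPM) and monocytes (85.9 ± 33.0 CPM). Monocytes held 0.464 of the NKT-like level (lower in 8 of 8 mice, adjusted exact p = 0.021).

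Hspa8, the constitutive HSP70 that also strips clathrin from vesicles, was called higher in 4 classes. NKT-like cells measured 1104, 1669.5, 1579.9 and 1764 CPM in control mice and 2326, 1971, 2303 and 2318 CPM in BG mice. All 4 BG mice lay above the control mice, with control replicate 1 and BG replicate 6 the lowest of their groups. The log2 fold change was 0.54 (SE 0.12), from means of 1529 ± 294 CPM and 2229 ± 172 CPM. The other calls were of about the same size, at 0.58 (SE 0.12) in Cxcr6 CD4 T cells, 0.56 (SE 0.13) in endothelial cells and 0.55 (SE 0.13) in ILC1-like cells. Endothelial cells measured 793, 1189, 1024 and 1220.3 CPM in control and 1560.5, 1319, 1633 and 1731 CPM in BG mice, without overlap. Leaving out control replicate 1 ended the call of Hspa8 in all 4 classes, with log2 fold changes of 0.38 to 0.45. Single calls were also lost without BG replicate 7 in Cxcr6 CD4 T cells, without BG replicate 5 in NKT-like cells, without control replicate 2 or BG replicates 5 or 8 or with DESeq2 in ILC1-like cells, and without control replicate 3 or BG replicates 5, 7 or 8 or at a mitochondrial limit of 10% in endothelial cells. In KCs Hspa8 overlapped, at 1432, 2363, 1864 and 2361 CPM in control and 2657, 1874, 2505 and 2969.8 CPM in BG mice (log2 0.31, SE 0.19). Hspa8 was the one member that passed the filter in neutrophils, where single mice ranged from 533 to 2011 CPM and the log2 fold change was 0.66 (SE 0.36).

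Across classes Hspa8 was highest in cDC1 (3391 ± 682 CPM, n = 8), monocytes (2962 ± 495), cDC2 (2919 ± 666) and cycling T and NK cells (2886 ± 678). Among the 16 classes measured in all 8 mice it was lowest in B cells (1443 ± 313), endothelial cells (1309 ± 320) and neutrophils (1088 ± 568). Bile duct cells, measured in 7 mice, averaged 1133 CPM. Endothelial cells held 0.695 of the NKT-like level and B cells 0.769, in each case lower in 8 of 8 mice (exact sign test, adjusted p = 0.021). Most 90-base windows in the last 500 bases of the Hspa8 transcript (79.8%) also occur in other annotated genes of its family, none of which is listed among the counted genes, so its reads could not be split with a listed copy.

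Of the cytosolic HSP90 genes, Hsp90ab1 was called higher in BG mice in 3 of 16 classes and Hsp90aa1 in 1. The Hsp90ab1 calls were in NKT-like cells, Cxcr6 CD4 T cells and NK cells, each at a log2 fold change of 0.55 (SE 0.11, 0.12 and 0.13). NKT-like cells measured 1231, 1645, 1606 and 1898 CPM in control and 2533, 2162, 2545 and 2113 CPM in BG mice. NK cells measured 1445, 1959.8, 1767 and 2251 CPM in control and 2609, 2414, 3039 and 2696 CPM in BG mice. In both classes every BG mouse was above every control mouse, as in 10 of the 16 classes, all from the same 8 mice. Over all genes this held for 4.84% in NKT-like cells, 3.01% in NK cells and 3.3% of pairs over the 17 classes. KCs were among the 10 classes, at 1866, 1520.5, 1792 and 1566 CPM in control and 2393, 2166, 2112 and 2429.8 CPM in BG mice. Their log2 fold change of 0.44 (SE 0.17) was not called. Without control replicate 1 none of the 3 Hsp90ab1 calls remained, the log2 fold changes being 0.44 to 0.45. The NK cell call was also lost without control replicate 3 or BG replicates 5, 7 or 8, with DESeq2 and at a mitochondrial limit of 10%, and that in Cxcr6 CD4 T cells without BG replicate 7.

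Hsp90aa1, the heat-inducible isoform, was called in Cxcr6 CD4 T cells (log2 0.56, SE 0.14), where control mice measured 493, 581, 699 and 826 CPM and BG mice 1010.0, 892, 989 and 900.3 CPM. The groups did not overlap. Its fold change was larger in effector CD8 T cells (0.62, SE 0.16), which also did not overlap and were not called, and it was -0.01 (SE 0.20) in monocytes and -0.05 (SE 0.22) in cDC1. Leaving out any 1 of control replicates 1 to 3 or BG replicates 5 to 7 ended the Cxcr6 CD4 T cell call.

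Endothelial cells had the lowest level of both HSP90 genes among the 15 classes measured in all 8 mice, with 347 ± 62.4 CPM of Hsp90aa1 and 1443 ± 178 CPM of Hsp90ab1. Relative to NKT-like cells the Hsp90aa1 level there was 0.486 (log2 -1.04 ± 0.14, lower in 8 of 8 mice, adjusted exact p = 0.021). On the scale of the genes kept per class, both genes had their highest means in cDC2, at 1331 ± 329 CPM of Hsp90aa1 and 2830.03 ± 349 CPM of Hsp90ab1. The pDC means were 1289 ± 403 and 2566 ± 448 CPM. Since cDC2 kept 1517 genes and pDCs 6016, the order of these classes on all UMIs is not given by these values. Cycling T and NK cells exceeded NKT-like cells in 8 of 8 mice, by 1.64-fold for Hsp90aa1 and 1.31-fold for Hsp90ab1, with the same adjusted p.

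Of the mitochondrial pair, Hspd1 was called higher in 2 classes and Hspe1 in 3. Hspd1 in Cxcr6 CD4 T cells measured 105, 117, 139 and 177 CPM in control mice and 306, 313, 348 and 221 CPM in BG mice. All BG mice lay above all control mice, and BG replicate 8 was the lowest of them. The means were 134 ± 31.6 CPM and 297 ± 54.0 CPM and the log2 fold change 1.18 (SE 0.19), the highest of the 161 pairs. In NKT-like cells the Hspd1 values were 108, 152, 166 and 193 CPM in control and 283, 235, 265 and 207 CPM in BG mice, a log2 fold change of 0.68 (SE 0.14) with no overlap. Both calls held under every alternative that could be run. Bile duct cells went the other way, at 281, 326 and 278 CPM in the 3 control mice with enough cells and 202, 259, 261 and 258 CPM in BG mice (log2 -0.23, SE 0.19, not called). Hspd1 did not separate in endothelial cells (0.04, SE 0.12) or pDCs (0.02, SE 0.16).

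Hspe1 was called in NKT-like cells, Cxcr6 CD4 T cells and B cells. NKT-like cells measured 184, 274, 219 and 265 CPM in control and 429, 367, 485 and 319 CPM in BG mice. The groups stood apart there, with a log2 fold change of 0.77 (SE 0.13) that kept its call under every alternative. Cxcr6 CD4 T cells measured 255, 235, 324 and 361 CPM in control and 479, 468, 592 and 362 CPM in BG mice, so BG replicate 8 cleared control replicate 4 by about 1 CPM, and the fold change was 0.70 (SE 0.17), not called without control replicates 1 or 2, without BG replicates 6 or 7 or with DESeq2. B cells measured 188, 275, 250.1 and 305 CPM in control and 418, 307, 457 and 339 CPM in BG mice (0.58, SE 0.14), and that call was lost without any 1 of control replicates 1 to 3 or of BG replicates 5 and 7, and at a mitochondrial limit of 10%. Over all kept cells together Hspe1 was the 1 member called, at 214, 267, 234 and 260.0 CPM in control and 400.0, 317, 395 and 319 CPM in BG mice (log2 0.55, SE 0.11), where 1.02% of 13979 genes were called higher and 0.372% lower. In KCs Hspe1 values overlapped (229 to 311 CPM in control, 274 to 381 CPM in BG mice).

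Levels of the pair differed between classes in their own ways. Hspd1 was highest in cycling T and NK cells (319 ± 107 CPM) and NK cells (317 ± 96.7), and cycling cells were 1.55-fold above NKT-like cells in 8 of 8 mice (log2 0.63 ± 0.25, adjusted exact p = 0.021). The highest Hspe1 means were those of cDC1 (530 ± 107 CPM), cDC2 (516 ± 123), pDCs (509.9 ± 100.1) and naive-like CD8 T cells (466 ± 92.6). These classes kept 1830, 1517, 6016 and 4310 genes, so their order on all UMIs is not given by these values. Both were lowest in endothelial cells, at 114 ± 16.1 CPM of Hspd1 and 128 ± 26.9 CPM of Hspe1, and relative to NKT-like cells these were 0.585 and 0.414 (lower in 8 of 8 mice, adjusted exact p = 0.021). Reads in the 112 bases that the genes share cannot be told apart without strand, and the strand setting of the counting is not given in the sources used here, although the assay reads the 3′ ends. Of the windows in the last 500 bases of Hspe1, 36.0% also occur in 1 other annotated gene, which is not listed among the counted genes.

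**Figure D3:**
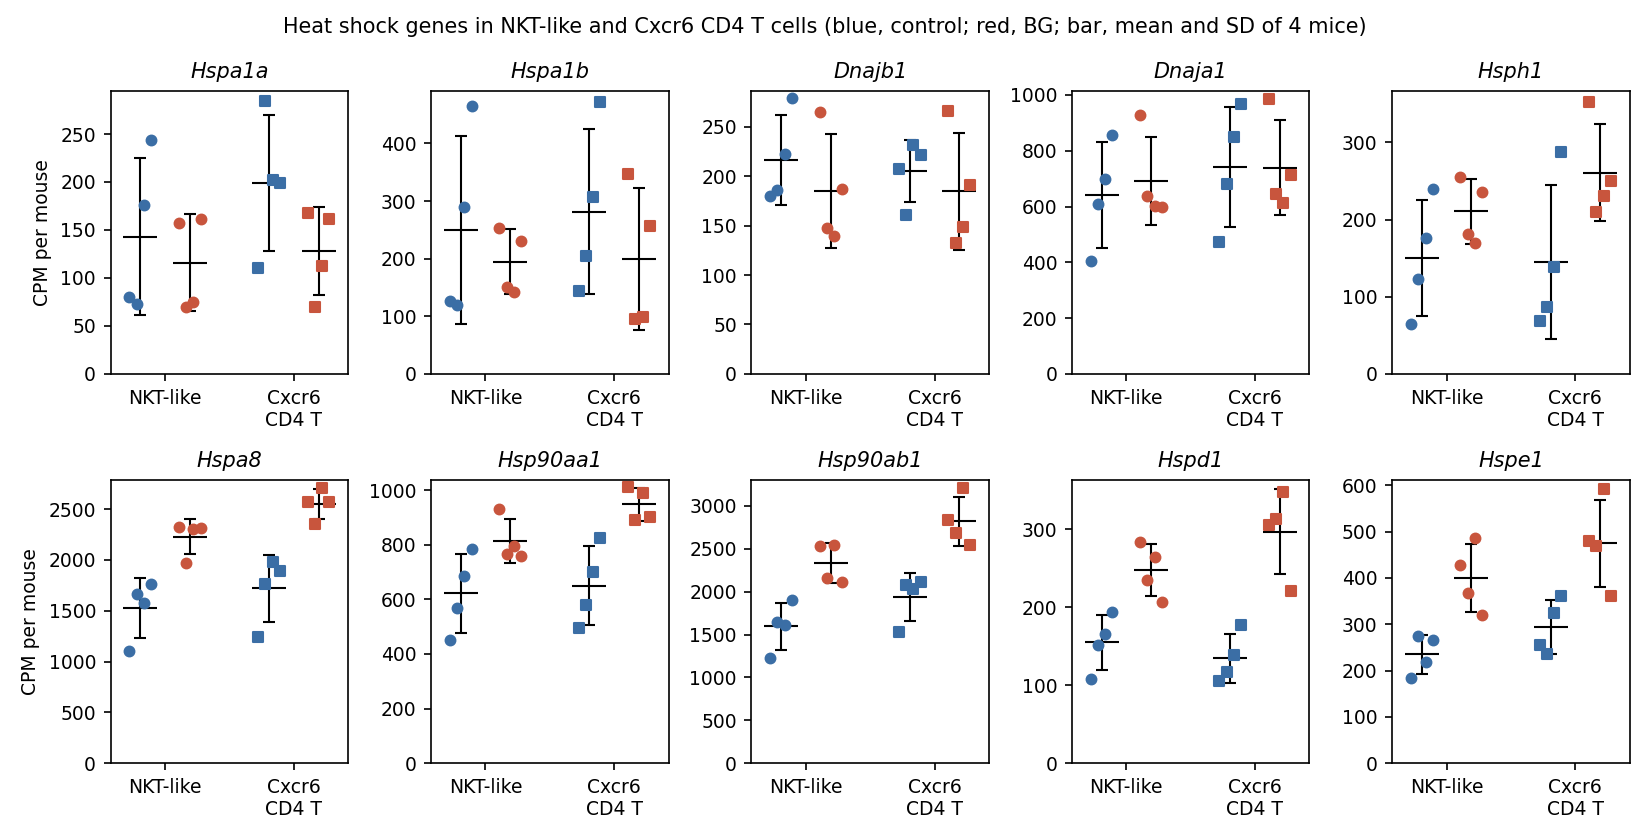
CPM of each heat shock gene per mouse in NKT-like cells (circles) and Cxcr6 CD4 T cells (squares), blue for control and red for BG, with bars for the mean and SD of 4 mice. Hspa8, Hsp90ab1, Hspd1 and Hspe1 have every red point above every blue one in both classes, and Hspa1a, Hspa1b, Dnajb1 and Dnaja1 overlap in both.

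Of the 110 comparisons between classes, 45 had an adjusted exact sign p under 0.05. Neighbouring classes in the order of a gene's levels were mostly not separated: of 141 neighbouring pairs over the 10 genes, 6 went one way in every mouse, and the smallest p after adjustment over the 141 was 0.184. For a recheck, cells were thinned to 1500 UMIs, and cells with fewer UMIs were left out. The 4 ratios rechecked in these deeper cells kept their directions. On the log2 scale Hspa1a in KCs over NKT-like cells was 2.19, and Hspd1 in cycling over NKT-like cells 0.42. Thinned levels are shares of all UMIs, so those 4 ratios do not rest on the genes kept per class. The other comparisons were not repeated on that scale.

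The members shared an order among the control mice. Control replicate 1 was the lowest control mouse in 127 and control replicate 4 the highest in 109 of 151 member and class pairs with all 4 control mice. Both held at once in 97 pairs (64.2%), beside 9.99% of 35747 gene and class pairs with a mean of at least 50 CPM. By gene this was 14 of 15 classes for Hsph1, 12 of 15 for Hsp90aa1, Hsp90ab1 and Dnaja1, 10 of 15 for Hspd1 and Dnajb1, 9 of 15 for Hspa1b, 8 of 15 for Hspa1a, 6 of 16 for Hspa8 and 4 of 15 for Hspe1. The ratio of the highest to the lowest control mouse had a median over classes of 3.76 for Hspa1b, 3.72 for Hsph1, 3.16 for Hspa1a and 2.25 for Dnaja1, and among BG mice the medians were 2.11, 1.61, 2.04 and 1.45. Among the BG mice, replicate 6 was lowest in 77 and replicate 5 highest in 72 of 161 pairs.

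Mitochondrial UMIs moved with part of this order. In kept cells they were 13.7% of UMIs in control replicate 1 and between 16.2% and 16.7% in the other 3 control mice, and control replicate 1 was lowest in 15 of 16 classes. In BG mice the share was lowest in replicate 6 (13.6%, lowest in 16 of 17 classes) and highest in replicate 5 (18.8%, highest in 12 of 17). The summed members had control replicate 1 lowest in 16 of 16 classes and control replicate 4 highest in 14. Immediate early sums did not follow, with control replicate 1 lowest in 2 of 16 classes. The part of the mitochondrial share in the members' levels was not tested. With mitochondrial UMIs limited to 10% per cell, 7 classes could be fitted, and 46 of 62 member pairs there had fold changes above 0, 4 of them called higher where 7 were called in the same classes at 30%.

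**Figure D4:**
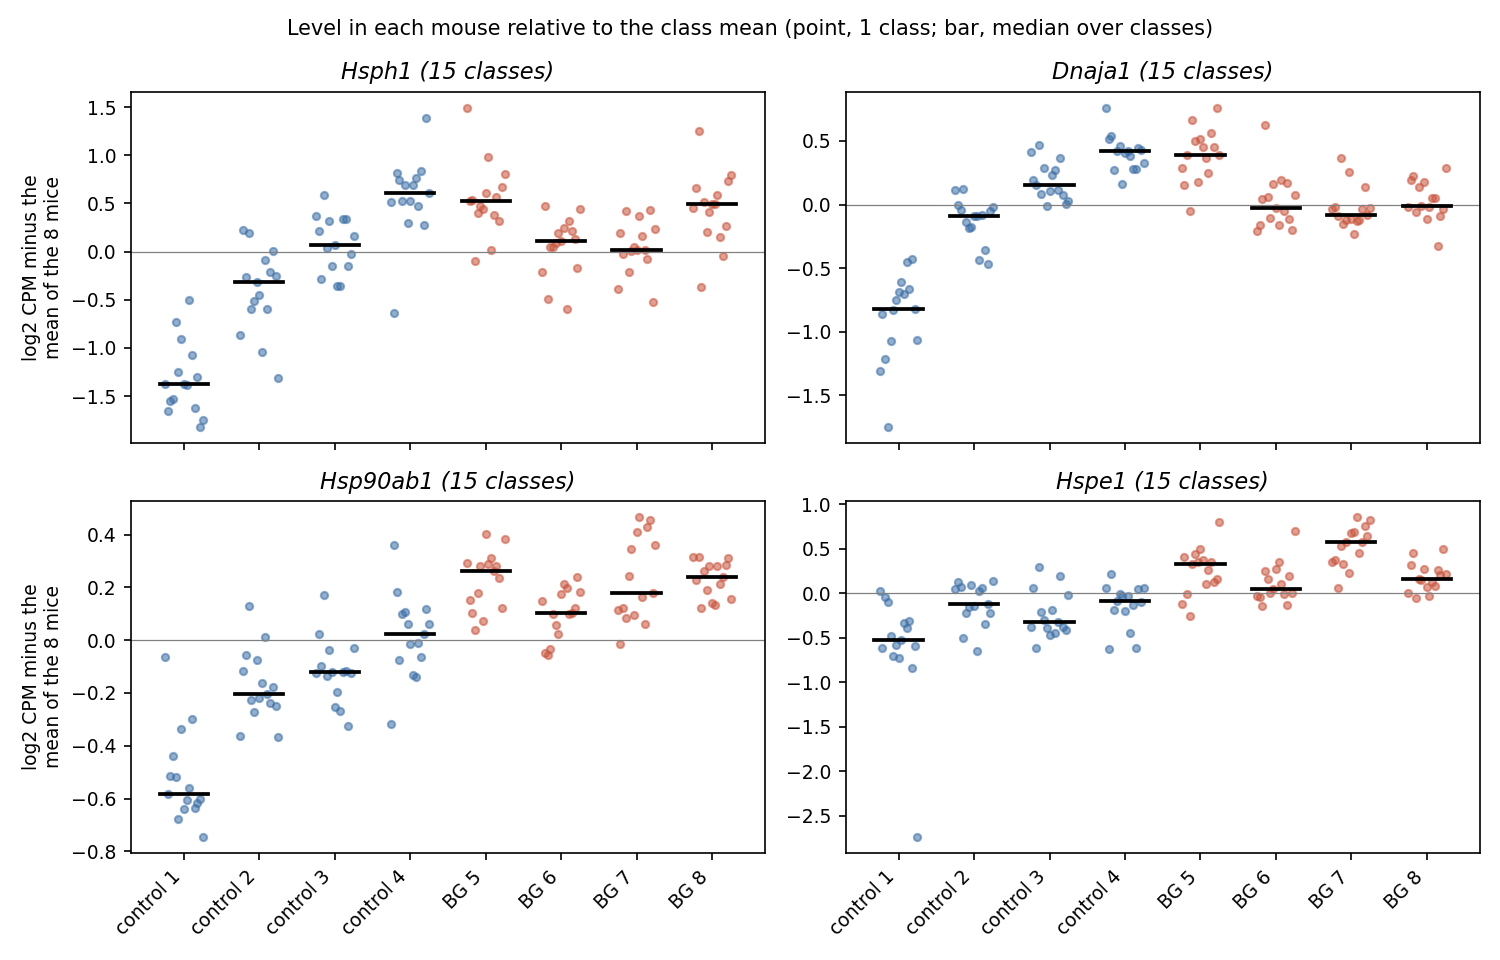
Log2 CPM of Hsph1, Dnaja1, Hsp90ab1 and Hspe1 in each mouse minus the mean of the 8 mice, with 1 point for each of 15 cell classes and a bar at their median (blue, control; red, BG). Control replicate 1 has the lowest median for all 4 genes, and for Hsph1 and Dnaja1 control replicate 4 reaches the level of the BG mice.

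Other chaperone genes were examined in 5 lists of 50 genes in all, which gave 492 tested pairs of a gene and a class. These lists too were drawn up with earlier results of these data known, so their calls and adjusted p values are printed as a description. Of the 492 pairs 7 were called higher (1.42%) and 0 lower, beside 0.938% and 0.158% of all gene and class pairs. Fold changes were above 0 in 339 (68.9%), beside 49.5% of all pairs. At an unadjusted p under 0.05, edgeR had 80 higher and 5 lower, and DESeq2 called 4 higher and 0 lower. No share over all genes is at hand for the unadjusted and DESeq2 counts. The partners that load or steer HSP90 held 5 of the 7 calls. Of 130 pairs of this HSP90 cochaperone list 105 (80.8%) had fold changes above 0 and 3.85% were called higher. The TRiC list, the ring that folds actin and tubulin, had 100 of 128 (78.1%) above 0 and 1 call. HSP70 partners had 78 of 135 (57.8%) above 0 and 1 call. Mitochondrial chaperones and proteases had 33 of 62 (53.2%) above 0 and no call by edgeR (1 higher and 0 lower at an unadjusted p under 0.05) or DESeq2. Heat shock factors with the small heat shock proteins had 23 of 37 above 0 and no call by either tool (3 higher and 2 lower at an unadjusted p under 0.05).

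Fkbp5, an HSP90 cochaperone known as a glucocorticoid target, rose in BG NKT-like cells, from 21.9, 23.5, 29.5 and 31.3 CPM in control to 51.9, 48.9, 55.9 and 49.2 CPM in BG mice (log2 0.97, SE 0.12, edgeR adjusted p = 8.3e-05). The groups were well separated, and the call held under all alternatives. Stip1, which bridges HSP70 and HSP90, rose there too, from 56.4, 82.5, 92.6 and 105.8 CPM to 139.9, 137.4, 137.5 and 136.7 CPM (log2 0.72, SE 0.14, edgeR adjusted p = 0.0046), also under all alternatives. Control replicate 1 was again the lowest control mouse. Fkbp4, a steroid receptor cochaperone, rose by log2 0.51 (SE 0.11, edgeR adjusted p = 0.0135) and Hspbp1, an HSP70 exchange factor, by 0.58 (SE 0.12, edgeR adjusted p = 0.0106) in the same cells. Both of the latter calls were lost without control replicate 1 or without BG replicate 7, and that of Fkbp4 also without BG replicate 5 and at the mitochondrial limit of 10%.

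Stip1 rose in ILC1-like cells as well (log2 1.29, SE 0.28, edgeR adjusted p = 0.021), on 10 to 27 UMIs per mouse, a call lost with DESeq2 and without control replicate 1 or BG replicate 8. Cct8, a TRiC subunit, rose in Cxcr6 CD4 T cells (log2 0.76, SE 0.19, edgeR adjusted p = 0.0209), lost with DESeq2 and without control replicates 1 or 3 or BG replicates 5, 6 or 7. In endothelial cells Fkbp5 rose by log2 0.58 (SE 0.14, edgeR adjusted p = 0.0494), lost with DESeq2, with the stricter gate and without any 1 mouse except control replicate 4. In each of the 7 calls all 4 BG mice lay above all 4 control mice, which comes with picking called pairs and adds no support. Control replicate 1 was lowest and control replicate 4 highest in 34 of 106 HSP90 cochaperone pairs (32.1%), in 21.2% of mitochondrial, 19.4% of HSP70 partner, 17.5% of TRiC and 11.1% of heat shock factor pairs.

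Interferon response genes were called higher in 76 of 106 pairs and cell cycle genes in 7 of 51. By class, the counts were as follows where members were called. KCs, which held the 2 lower calls, had 3 of 7 interferon genes and 2 of 2 cell cycle genes called higher and 1 of 10 immediate early genes lower. Endothelial cells had 10 of 10 interferon genes called higher, 9 of 12 immediate early fold changes above 0 and a cell cycle median of -0.31 on the log2 scale. None of their 12 immediate early or 7 cell cycle genes was called. In Cxcr6 CD4 T cells 8 of 8 interferon and 2 of 3 cell cycle genes were called higher and 3 of 10 immediate early genes lower. B cells had 11 of 11 interferon genes called higher, 3 of 12 immediate early genes lower and 0 of 5 cell cycle genes called. NK cells had 3 of 12 immediate early genes called lower, and 0 of 2 interferon and 0 of 3 cell cycle genes called. ILC1-like cells had 1 of 3 interferon genes called higher, 2 of 10 immediate early genes lower and 0 of 1 cell cycle genes called. In NKT-like cells the interferon list summed to 702 to 913 CPM in control and 2082 to 3007 CPM in BG mice, the cell cycle list to 192 to 221 CPM and 295 to 453 CPM, and the immediate early list to 7735 to 8647 CPM and 5523 to 6545 CPM. Hepatocyte transcripts, a measure of free RNA from the most abundant liver cell, summed to 174 to 296 CPM and 160.3 to 391 CPM and overlapped. KC markers in these T cells summed to 38.97 to 85.9 CPM and 23.1 to 58.3 CPM. Their part in the members' values was not tested, and in summed cells fewer expressing cells and less RNA per cell cannot be told apart.

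Patterns over the classes were compared by Pearson's r of mean log2 CPM over 32 points (16 classes in 2 groups, among 783 genes with a mean of at least 20 CPM). The r values are a description, since the points share mice, depth and the CPM scale of each class. The closest non-member was Cct5, a TRiC subunit, for Hsp90aa1 (0.86), Hsp90ab1 (0.86) and Hspe1 (0.80), followed by Tmem134 and Oaz1, by Cct3 and Eif5a, and by Cct3 and Rpl31. For Hspd1 it was Cct7 (0.78), then Atp5g1 and Mif. Hsph1 was closest to Chordc1 (0.78), an HSP90 cochaperone, then Fubp1 and Thrap3. Hspa1a was closest to the nuclear RNA Neat1 (0.91), then Capza2 and Cst3, and Hspa1b to Cdc42 (0.82), then Neat1 and Hspa5. Hspa8 was closest to Actb (0.87), then Atp5l and Arpc1b, Dnaja1 to Ndufa1 (0.77), then Psmb10 and Pik3r1, and Dnajb1 to Ankrd11 (0.85), then Btg1 and Rbm39. Among the members themselves, Hspa1a and Hspa1b had r = 0.87, Hsp90aa1 and Hsp90ab1 0.83, and Dnajb1 and Hsph1 0.71, while Hspa1a had -0.05 with either HSP90 gene.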

How the data were processed

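Libraries were made by the study with the 10x Genomics 3′ v3.1 chemistry, 1 per mouse. The authors deposited filtered UMI counts per gene and barcode, not normalized, made with Cell Ranger (6.1.2 in the file headers) on mm10 with intronic reads included. No source used here states the strand setting. The members and gene lists were chosen with earlier results of these data known.

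Cells with 200 to 2500 genes and at most 30% mitochondrial UMIs were kept, the limits of the study's methods. They were gated by marker genes (UMI present or absent, at least 3 own and at most 2 markers of an unrelated class). NK, ILC1-like and cycling cells were gated on fewer than 3 own markers. No clustering and no doublet caller was run. The gate left out cells with more than 2 markers of an unrelated class, so cells with less mixing could remain. Counts were summed per mouse and class, for classes with at least 10 cells in at least 3 mice per group, so patrolling monocytes (99 cells) and basophils (79) were not tested, and bile duct cells had 3 control mice. Sums were fitted with edgeR 4.0.16 (R 4.3.3; filterByExpr, TMM, quasi-likelihood F test, Benjamini-Hochberg over all genes of a class), called at adjusted p under 0.05 with a log2 fold change past 0.5. The study used DESeq2 on such sums, here version 1.42.0 as an alternative. Levels between classes were compared within mice by exact sign test (scipy 1.17.1), on CPM of the genes kept in each class. Nothing says more about the replicates than 1 mouse per library, and intervals between mice include technical spread.

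On simulated counts the fit called 90.7% of 2-fold and 100% of 4-fold changed genes in NKT-like cells (9602 genes), 76.8% and 100% in KCs (1529 genes). Each gene was drawn on its own, with no effect shared by the genes of a mouse. The members shared an order among control mice and mostly had smaller fold changes, so these rates do not describe them.

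All 10 members were named in each class, partner genes where called (at most 5 per direction and class), and per member the 3 non-member genes most like it. Alternatives were RLE size factors, DESeq2, no low-count filter, no upper gene limit, a mitochondrial limit of 10%, a stricter gate, each mouse left out, thinning to 1500 UMIs and, added after seeing the data, KCs with any number of T cell markers. Motifs and transcript-end windows were searched in RefSeq promoters (GRCm38.p6) and a GENCODE annotation of GRCm38.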

Additional observations from a re-analysis of the deposited data

Results flagged for a closer look

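Of 49 groups of 4 mice examined for the called and named pairs, 5 held a mouse far from the other 3. The chance rate of about 1 in 20 groups is that of independent groups that were not picked. These groups share the same mice and come from called and named pairs. Whether 5 of 49 is more than chance gives therefore cannot be told, and the values are listed as a description. Hspa8 in NKT-like cells was low in BG replicate 6 (1971 CPM, against 2303 to 2326 CPM in the other BG mice). Dnaja1 in NKT-like cells was high in BG replicate 5 (928 CPM, against 599 to 638 CPM). Hsp90ab1 in Cxcr6 CD4 T cells was low in control replicate 1 (1525 CPM, against 2028 to 2117 CPM). Hspa1a in monocytes was high in control replicate 3 (1277 CPM, against 687 to 779 CPM). Hspd1 in bile duct cells was low in BG replicate 5 (202 CPM, against 258 to 261 CPM).

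For Hspd1 every BG mouse was above every control mouse in NKT-like (log2 fold change 0.68), Cxcr6 CD4 T (1.18) and cycling T and NK cells (0.61). In bile duct cells every BG mouse was below every control mouse (-0.23, with 3 control mice, not called). Over all genes, BG mice all lay above in 4.84% of genes in NKT-like, 3.82% in Cxcr6 CD4 T and 2.91% in cycling cells. They all lay below in 3.17% of genes in bile duct cells. A difference in direction between these classes was not tested.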

How the results depend on the processing

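The 14 higher calls of the members became 3 to 22 when 1 mouse was left out, being 3 without control replicate 1 and 9 or 22 without control replicates 3 or 4, and 7 or 6 with BG replicates 5 or 7 dropped. The 2 lower calls became 0 to 4 (0 when BG replicate 7 was dropped, 1 when any of control replicates 3 or 4 or BG replicates 5 or 6 was, and 4 when control replicate 1 was). The 7 higher calls of the other chaperone lists became 3 to 11 (3 without control replicate 1 or BG replicate 7, 11 without control replicate 4). Without the low-count filter the 3 counts were 20, 5 and 12, with DESeq2 10, 2 and 4, and with mitochondrial UMIs limited to 10% they were 4, 0 and 3, that limit leaving 7 classes with enough cells and no KCs. Under RLE size factors, no upper gene limit and the stricter gate each count stayed within 1.5 times the first. The lower calls of the other lists were 0 throughout. Of 23 called gene and class pairs, 5 kept their call under every alternative run: Hspd1 in Cxcr6 CD4 T and NKT-like cells, and Hspe1, Fkbp5 and Stip1 in NKT-like cells. Over 312 alternative values of the 23 pairs 228 kept the call and 0 changed direction. Since the genes were chosen with earlier results of these data known, a kept call describes the values and adds no support. The 4 class ratios rechecked kept their direction under thinning and without the upper gene limit. The cause of these shifts was not tested. No paired analysis was possible because control mice carry replicate numbers 1 to 4 and BG mice 5 to 8, with none in common. Precision is limited by 4 mice a group and by small classes, with as few as 11 KCs in 1 mouse.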
